A study of Homo sapiens with 2 samples.

Results

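The genes described here encode the main splicing factor families, read in 2 single-cell libraries of the human line labelled MOLT4. They were chosen by symbol: the protein-coding SRSF1 to SRSF12 genes (SR proteins), the HNRNP genes, the SF3A and SF3B genes, the SNRP genes (core snRNP proteins), the PRPF genes, U2AF1, U2AF2, TRA2A and TRA2B, each with at least 50 UMIs over both libraries. Each UMI, a short random tag, stands for 1 RNA molecule caught in a droplet. Of 75 protein-coding genes that matched, 69 reached the minimum, out of 12128 genes that did so among the 36601 in the files. They were 11 SR, 2 TRA2, 20 hnRNP, 12 core snRNP, 9 SF3, 2 U2AF and 13 PRPF genes.

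The SP11 library came from cells given SP11 at 0.8 µM for 48 h, and the control library from untreated cells of the same label. According to the study SP11 inhibits HSP90, the chaperone on which many kinases and transcription factors depend. MOLT4 is an established T-cell acute lymphoblastic leukemia line, and profiles were made on the 10x Chromium droplet platform. Each condition had 1 library, so no test between conditions was possible, no p-value is given, and every difference compares these libraries and has no replicate check.

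After barcodes with under 200 detected genes or over 20% mitochondrially encoded UMIs were removed, 852 SP11 and 1053 control cells were kept. They held 9498802 SP11 and 19375163 control UMIs, with a median of 10488.5 and 17711 UMIs per cell. The label was checked against 31 T-lineage markers, of which 18 were at 0 in the SP11 library and 15 in the control library, and only 2 reached 10 CPM in either. Markers of granulocyte precursors summed to 1273 CPM in SP11 and 2360 CPM in control cells, and markers of monocytes or macrophages to 2349 CPM in SP11 and 946 CPM in control cells. Single markers of both lists went both ways. ELANE had 477 CPM in SP11 and 1110 CPM in control cells, and RNASE2 177 and 45.8 CPM. S100A8 had 219 CPM in SP11 and 4.95 CPM in control cells, and SPI1 27.9 and 90.1 CPM. MPO held only 5 SP11 and 3 control UMIs. The profiles therefore go against the T-cell label, and the cells are called here by their library. The part of these marker differences in the results on splicing factors was not tested. The libraries shared 114 barcodes. Of the 109 kept in both, only 3 had their best match in the cell with the same barcode, and without the shared barcodes the log2 ratios given below for whole families were 0.72 for core snRNP, 0.16 for SR and 0.03 for hnRNP genes.

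Splicing removes introns from new transcripts. SR proteins, which carry arginine and serine repeats, mostly bind exons and promote the use of nearby splice sites, whereas many hnRNP proteins coat nascent RNA and often repress such sites. The SNRP genes encode the Sm ring that wraps most of the spliceosomal small nuclear RNAs and proteins specific to the U1 and U2 particles. U2AF and SF3 proteins recognise the 3′ splice site and the branch point, and PRPF proteins act in the tri-snRNP and in the later rearrangements of the spliceosome. Many SR and hnRNP genes limit their own output through exons that send their transcripts to decay.

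Expression was taken as UMIs per 1000000 UMIs of the library (CPM), and differences as the log2 ratio of SP11 to control CPM. Intervals are exact 95% intervals that cover counting error only. The median of all 12128 measured genes was -0.35 on this scale. A ratio near -0.35 is thus that of the typical gene, and edgeR's TMM factors shift all values up to a median of -0.01. Counts of genes past 1.5-fold describe the size of differences only.

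The splicing factor genes as a set stood above the typical gene in SP11 cells. Together they held 1.67% of SP11 UMIs and 1.37% of control UMIs, or 16701 against 13684 CPM, a summed log2 ratio of 0.29 (95% interval 0.28 to 0.30). The median of the 69 ratios was 0.21, and 57 of them lay above the median of all measured genes. On the CPM scale 13 of the 69 were at least 1.5-fold higher in SP11 cells, where 10.7% of all measured genes were, and 5 were at least 1.5-fold lower, where 38.4% of all measured genes were. Relative to the median gene the counts were 32 higher and 1 lower, beside 22.5% and 24.3% of all measured genes. The counting interval lay above 0 for 37 members and below 0 for 20, beside 22.9% and 53.5% of all measured genes.

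The 3 large families had different summed ratios. The core snRNP genes summed to 5727 CPM in SP11 and 3460 CPM in control cells, a log2 ratio of 0.73 (0.71 to 0.74). The SR genes summed to 2066 CPM in SP11 and 1866 CPM in control cells, a log2 ratio of 0.15 (0.12 to 0.17). The hnRNP genes summed to 5790 CPM in SP11 and 5664 CPM in control cells, a log2 ratio of 0.03 (0.02 to 0.05) that became -0.02 with totals without mitochondrially encoded genes. The intervals of the 3 families, which cover counting error only, did not overlap over all cells. Those of SR and hnRNP genes did overlap in cells under 8000 UMIs and in cells of 16000 UMIs and more. The medians of the single ratios were 0.59 for core snRNP, 0.24 for SR and -0.04 for hnRNP genes, and the last turned to 0.31 with TMM factors. As a share of the UMIs of these families, core snRNP genes took 42.2% in SP11 and 31.5% in control cells, hnRNP genes 42.6% in SP11 and 51.5% in control cells, and SR genes 15.2% in SP11 and 17.0% in control cells. These shares do not depend on the scaling between libraries.

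**Figure D1:**
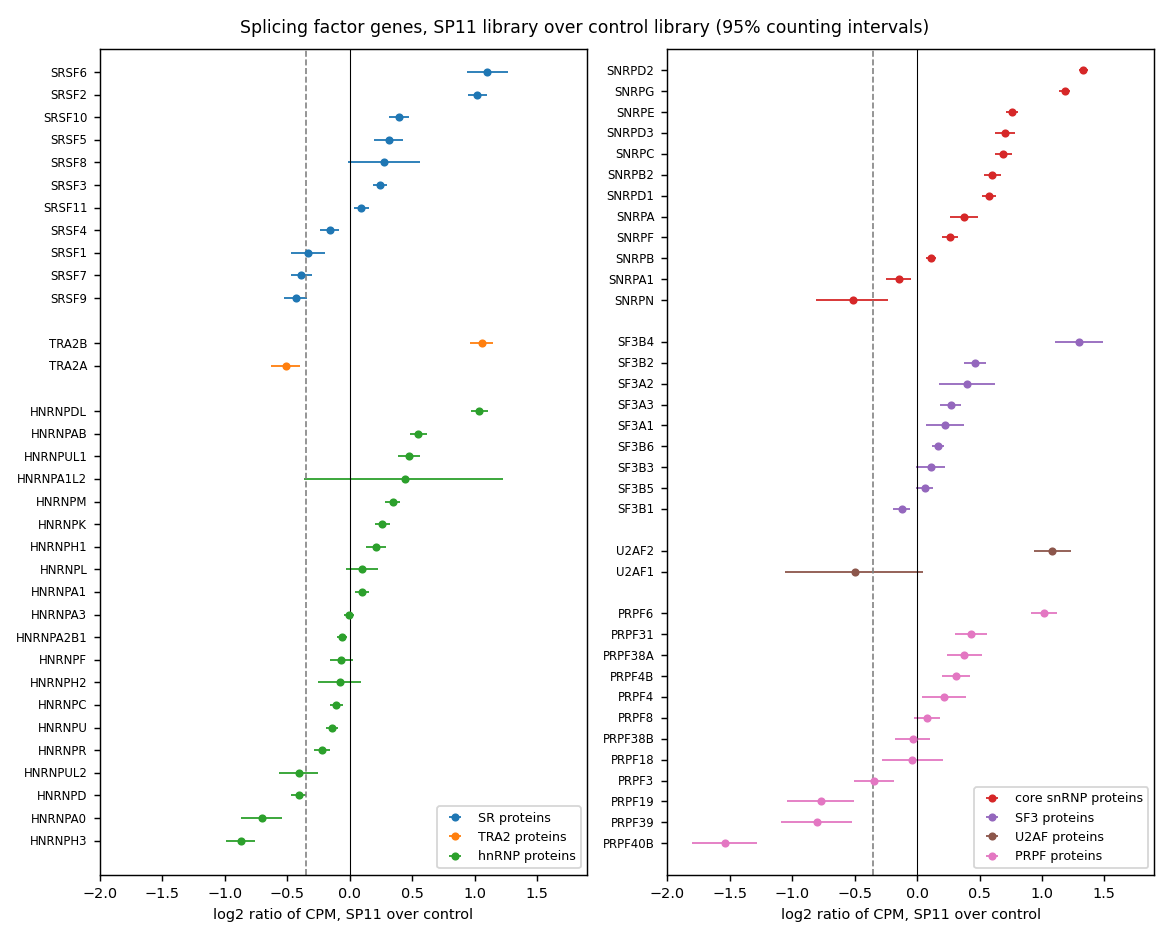
Log2 ratio of SP11 to control CPM (x axis) for 68 of the 69 splicing factor genes (y axis), grouped by family. Points are ratios, bars are exact 95% counting intervals, the solid line is 0 and the dashed line marks -0.35, the median ratio over all genes measured. Of the 12 core snRNP genes, 10 lie above 0, and of the 20 hnRNP genes, which spread from -0.87 to 1.04, 9 do. Of all 12128 measured genes, 3953 have ratios above 0.

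Core snRNP genes held the highest ratios of any large family. In this family 6 of 12 genes were at least 1.5-fold higher in SP11 cells and none was 1.5-fold lower. Of all measured genes 10.7% were higher and 38.4% lower by that size. SNRPD2 (ENSG00000125743), which encodes the Sm D2 protein of the ring, was at 1396 CPM in SP11 and 555 CPM in control cells, a log2 ratio of 1.33 (1.29 to 1.37). SNRPG (ENSG00000143977), for the smallest Sm protein, was at 937 CPM in SP11 and 413 CPM in control cells, a log2 ratio of 1.18 (1.14 to 1.23). SNRPE, for Sm E, was at 705 CPM in SP11 and 417 CPM in control cells, with a log2 ratio of 0.76. Thus 3 genes of the same ring had the highest ratios of the family. SNRPD3 followed at 0.70, SNRPC, for a U1-specific protein that helps to read the 5′ splice site, at 0.69, and SNRPB2, for the U2-specific B″ protein, at 0.60.

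The ring genes were not raised in equal measure. SNRPB, which encodes the Sm B and B′ proteins, had 680.1 CPM in SP11 and 629 CPM in control cells, a log2 ratio of 0.11 (0.07 to 0.16), and SNRPF had a ratio of 0.26. SNRPB held 11.9% of the family's UMIs in SP11 and 18.2% in control cells, while SNRPD2 held 24.4% in SP11 and 16.1% in control cells. Sm proteins enter the ring in equal numbers, so these shares describe transcripts and not the assembled particle. The 8 ring genes together had a summed ratio of 0.78 (0.76 to 0.80) and the 4 genes for U1- and U2-specific proteins one of 0.47 (0.43 to 0.51).

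SNRPN and SNRPA1 were the genes of the family with ratios below 0. SNRPN, an imprinted relative of SNRPB best known from neurons, had 14.3 CPM in SP11 and 20.4 CPM in control cells, a log2 ratio of -0.51 (-0.81 to -0.23). That ratio was -0.17 with TMM factors, and it turned to 0.06 in G1 cells and to 0.18 with the trend in intronic length subtracted. It shares its transcript with SNURF, so that its count may hold reads of both. SNRPA1, for the U2-specific A′ protein, had 121 CPM in SP11 and 134 CPM in control cells, and its ratio of -0.15 became 0.20 with TMM factors.

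Promoter windows of 300 bases, from 250 before to 50 after the start that RefSeq annotates (GRCh38.p14), were read for 60 of the 69 genes. The windows below are those of the pair with the highest core snRNP ratios (SNRPD2 and SNRPG), of SNRPC and SNRPF, whose ratios differ, of SF3B4, the gene with the highest ratio outside the family, and of SRSF6, the SR gene with the highest ratio. They were chosen after their values were seen. Capitals mark the letters of the ETS site CCGGAAG and of the NRF1 site (GCGC, any 2 bases, GCGC), on either strand; the heat shock element core GAANNTTC and the E-box CACGTG were searched as well. Overlapping NRF1 matches in SRSF6 run together. Each line is written 5′ to 3′ along the gene's own strand.
SNRPD2: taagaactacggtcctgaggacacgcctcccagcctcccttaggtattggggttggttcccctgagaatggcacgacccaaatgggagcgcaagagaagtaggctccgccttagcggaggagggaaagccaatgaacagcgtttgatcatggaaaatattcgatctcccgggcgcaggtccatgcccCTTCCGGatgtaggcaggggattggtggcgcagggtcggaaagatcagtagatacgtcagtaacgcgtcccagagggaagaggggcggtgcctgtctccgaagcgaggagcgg
SNRPG: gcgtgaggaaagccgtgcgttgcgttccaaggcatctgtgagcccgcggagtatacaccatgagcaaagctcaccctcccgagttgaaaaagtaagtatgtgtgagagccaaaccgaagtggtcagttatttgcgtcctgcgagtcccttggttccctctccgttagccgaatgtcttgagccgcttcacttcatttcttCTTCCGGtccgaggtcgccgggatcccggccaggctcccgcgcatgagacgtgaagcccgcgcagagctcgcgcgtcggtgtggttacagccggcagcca
SNRPC: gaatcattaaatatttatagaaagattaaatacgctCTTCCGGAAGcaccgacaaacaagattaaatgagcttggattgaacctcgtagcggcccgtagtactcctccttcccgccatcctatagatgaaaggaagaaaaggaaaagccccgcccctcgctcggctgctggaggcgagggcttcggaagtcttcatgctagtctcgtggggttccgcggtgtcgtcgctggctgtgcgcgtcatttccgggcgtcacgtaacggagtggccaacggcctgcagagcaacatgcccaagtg
SNRPF: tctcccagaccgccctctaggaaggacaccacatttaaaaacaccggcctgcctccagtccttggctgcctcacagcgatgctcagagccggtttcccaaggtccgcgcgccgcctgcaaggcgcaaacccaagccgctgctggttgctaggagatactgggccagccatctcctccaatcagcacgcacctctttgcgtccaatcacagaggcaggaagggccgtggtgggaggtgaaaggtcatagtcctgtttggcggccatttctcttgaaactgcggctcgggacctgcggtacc
SF3B4: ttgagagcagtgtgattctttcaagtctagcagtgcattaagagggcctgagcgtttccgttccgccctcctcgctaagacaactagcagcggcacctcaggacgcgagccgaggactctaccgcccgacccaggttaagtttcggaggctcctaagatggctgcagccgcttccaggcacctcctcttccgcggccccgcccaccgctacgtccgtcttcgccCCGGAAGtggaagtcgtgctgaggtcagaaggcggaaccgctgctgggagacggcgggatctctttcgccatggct
SRSF6: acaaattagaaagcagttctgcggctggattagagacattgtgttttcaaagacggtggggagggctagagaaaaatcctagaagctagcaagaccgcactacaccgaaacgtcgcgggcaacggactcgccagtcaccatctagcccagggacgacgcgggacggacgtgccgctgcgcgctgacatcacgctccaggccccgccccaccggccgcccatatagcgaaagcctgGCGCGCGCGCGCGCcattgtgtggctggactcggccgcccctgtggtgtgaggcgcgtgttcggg
The windows lie at chr19:45692267-45692566 (minus strand), chr2:70293409-70293708 (minus strand), chr6:34757255-34757554 (plus strand), chr12:95858702-95859001 (plus strand), chr1:149927754-149928053 (minus strand) and chr20:43457646-43457945 (plus strand), in the order of the lines. RefSeq's start for SNRPD2 and SNRPG lies 253 and 282 bases downstream of the outermost start in GENCODE 44, so these windows lie wholly downstream of it.

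The ETS letters were unevenly spread over the families. They were in 7 of 11 core snRNP windows (63.6%) and 6 of 8 SF3 windows, against 2 of 10 SR and 2 of 19 hnRNP windows. Over all 27305 promoters of the same length the share was 10.7%, and over the 9106 promoters of measured genes 20.9%. Windows whose RefSeq start lay within 100 bases of the GENCODE start held the letters in 4 of 5 core snRNP, 5 of 7 SF3 and 0 of 12 hnRNP genes. Core snRNP genes with the letters had ratios of -0.15, 0.11, 0.60, 0.69, 0.76, 1.18 and 1.33, and those without them -0.51, 0.26, 0.38 and 0.70, so the ranges overlapped. The E-box was in 7 of 19 hnRNP windows (36.8%) and in none of the SR or core snRNP windows, against 10.7% of the promoters of measured genes. NRF1 letters were in 4 of 10 SR, 6 of 19 hnRNP and 1 of 11 core snRNP windows, against 16.8% of the promoters of measured genes. The heat shock element core was in 4 of 60 windows (6.67%), against 4.57% of the promoters of measured genes. A match describes only the letters of a window, and its part in the ratios was not tested.

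Among the SR genes, 2 of 11 were at least 1.5-fold higher in SP11 cells and none was 1.5-fold lower. That was 18.2% higher, beside 10.7% higher and 38.4% lower of all measured genes. SRSF6 (ENSG00000124193), an exon-binding activator of splicing, had 65.3 CPM in SP11 and 30.4 CPM in control cells, a log2 ratio of 1.10 (0.94 to 1.27). SRSF2 (ENSG00000161547), which acts in exon recognition and is often mutated in myeloid neoplasms, had 285 CPM in SP11 and 140.4 CPM in control cells, a log2 ratio of 1.02 (0.95 to 1.10). The next SR gene was SRSF10, a regulator that is dephosphorylated on heat shock and then represses splicing, with a ratio of 0.39 (0.31 to 0.47).

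The other SR genes lay within 1.5-fold of equal CPM. SRSF3, the smallest SR protein, had the most UMIs of the family, with 448 CPM in SP11 and 379 CPM in control cells and a ratio of 0.24. SRSF11 was at 356 CPM in SP11 and 334 CPM in control cells. SRSF7, a close relative of SRSF3, had 177 CPM in SP11 and 231 CPM in control cells, a ratio of -0.39 (-0.47 to -0.31). SRSF9 had a ratio of -0.43 and SRSF1, the founding member of the family, one of -0.33, which became -0.09 and 0.01 with TMM factors. The counting intervals of SRSF1, SRSF7 and SRSF9 (-0.53 to -0.34) all held -0.35, the median of all measured genes. These genes thus stood near the level of the typical gene. With the trend in intronic length subtracted their ratios were -0.45, -0.49 and -0.14 in that order.

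The TRA2 genes, which encode SR-like activators, moved in opposite directions on the CPM scale. TRA2B had 191 CPM in SP11 and 91.7 CPM in control cells, a log2 ratio of 1.05 (0.96 to 1.15). TRA2A had 89.1 CPM in SP11 and 127 CPM in control cells, a log2 ratio of -0.51 (-0.63 to -0.40), and was at -0.17 with TMM factors.

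The hnRNP genes were centred near equal CPM, with 1 of 20 higher and 2 lower in SP11 cells by 1.5-fold or more. Of all measured genes 10.7% were higher and 38.4% lower by that size. Of the 20 hnRNP genes, 16 lay above the median of all measured genes. HNRNPDL (ENSG00000152795), a relative of HNRNPD, had 359 CPM in SP11 and 175 CPM in control cells, a log2 ratio of 1.04 (0.97 to 1.11). HNRNPAB, an RNA-binding protein of the same branch, had a ratio of 0.55 and HNRNPUL1 one of 0.47. At the other end HNRNPH3, a small member of the hnRNP H family, had 76.7 CPM in SP11 and 141 CPM in control cells, a log2 ratio of -0.87 (-0.99 to -0.75). HNRNPA0 had 41.0 CPM in SP11 and 66.8 CPM in control cells, a ratio of -0.71, and HNRNPD, which binds AU-rich elements, had 321 CPM in SP11 and 426 CPM in control cells, a ratio of -0.41.

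The hnRNP genes with the most UMIs differed little. HNRNPA2B1 had 815 CPM in SP11 and 851 CPM in control cells, a ratio of -0.06 (-0.10 to -0.02). HNRNPA3 had 737 CPM in SP11 and 741 CPM in control cells, and HNRNPU, a scaffold protein of nuclear RNA, had 547 CPM in SP11 and 604 CPM in control cells. All 3 of these ratios turned positive with TMM factors, at 0.28, 0.34 and 0.20. HNRNPA1L2, the gene nearest to the minimum from above, held 24 SP11 and 36 control UMIs and its interval ran from -0.37 to 1.23. It is nearly identical to HNRNPA1, so that its reads may not be separable.

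The SF3 and U2AF genes act in the same step, the recognition of the branch point and the 3′ splice site. SF3B4 had 52.5 CPM in SP11 and 21.4 CPM in control cells, a log2 ratio of 1.29 (1.10 to 1.49). U2AF2, the large U2AF subunit that reads the polypyrimidine tract, had 79.2 CPM in SP11 and 37.4 CPM in control cells, a ratio of 1.08 (0.93 to 1.23). SF3B1, the scaffold of the complex, had 271 CPM in SP11 and 295 CPM in control cells, a ratio of -0.12 that became 0.22 with TMM factors. The 9 SF3 genes summed to 1718 CPM in SP11 and 1532 CPM in control cells (log2 ratio 0.17), and SF3B6 and SF3B5, with 571 and 274 CPM in SP11 and 508 and 262 CPM in control cells, held much of the sum. U2AF1 held only 39 SP11 and 112 control UMIs, and its interval ran from -1.06 to 0.04. The genome build carries a duplicate of U2AF1 under another symbol, which makes this count uncertain.

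The PRPF genes included the lowest ratio of all. PRPF6, a bridge between the parts of the tri-snRNP, had 153 CPM in SP11 and 75.4 CPM in control cells, a log2 ratio of 1.02 (0.91 to 1.12), and PRPF31, another tri-snRNP protein, had a ratio of 0.43. PRPF40B (ENSG00000110844) had 15.2 CPM in SP11 and 43.97 CPM in control cells, a log2 ratio of -1.54 (-1.80 to -1.28). It was the gene counted above as 1.5-fold lower relative to the median gene. PRPF39 was at -0.80 with 14.0 CPM in SP11 and 24.4 CPM in control cells. PRPF19, the ubiquitin ligase of the complex named after it, was at -0.77 with 16.1 CPM in SP11 and 27.5 CPM in control cells. PRPF8, the large protein at the catalytic centre, had 122 CPM in SP11 and 116 CPM in control cells, a ratio of 0.08 (-0.02 to 0.18).

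Close relatives often went different ways on the CPM scale, and these directions depend on the scaling between libraries. Their split of a pair's UMIs does not depend on it. TRA2B took 68.1% (66.3 to 69.9, exact binomial) of the TRA2A and TRA2B UMIs in SP11 and 41.9% (40.4 to 43.4) in control cells. HNRNPDL took 52.8% of its pair with HNRNPD in SP11 and 29.1% in control cells. SRSF6 took 24.0% of its pair with SRSF4 in SP11 and 11.6% in control cells. In these pairs the first gene gained share in each cell cycle phase. SRSF3 took 71.7% of its pair with SRSF7 in SP11 and 62.1% in control cells. HNRNPH1 took 73.1% of its pair with HNRNPH3 in SP11 and 56.1% in control cells. That split depends on the partner, as HNRNPH3 had the lowest ratio of the hnRNP genes (-0.87). HNRNPH2, another relative, had a ratio of -0.08 (-0.25 to 0.09), nearer to the 0.21 of HNRNPH1, and the split with it was not taken. SRSF1 and SRSF9 kept close to the same split, with SRSF1 at 32.5% (30.4 to 34.6) in SP11 and 31.0% (29.7 to 32.3) in control cells.

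**Figure D2:**
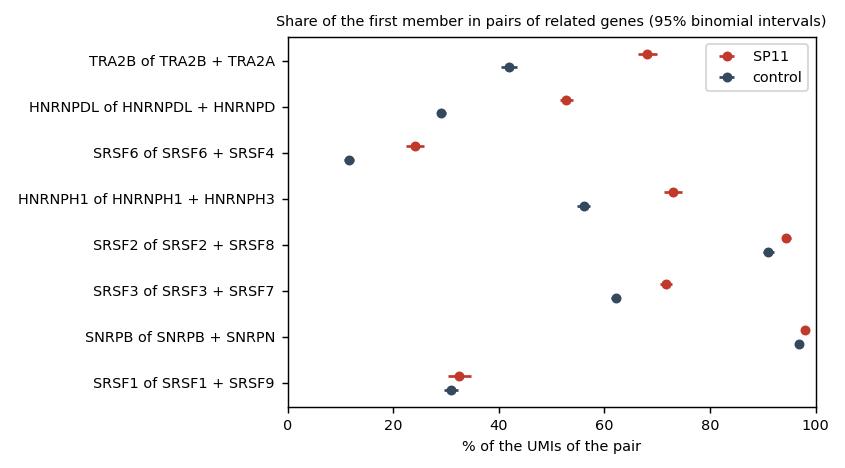
Share of a pair's UMIs held by the first gene (x axis, %) for 8 pairs of related splicing factor genes (y axis), with SP11 above control in each row. Points are shares and bars are exact 95% binomial intervals, which cover counting error only. TRA2B moved furthest in share, at 68.1% in SP11 and 41.9% in control, and SRSF1 with SRSF9 had overlapping intervals.

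The families were also compared cell by cell at equal depth. UMIs were drawn at random from each cell down to 4400, so that 769 SP11 and 963 control cells entered and the 83 SP11 and 90 control cells below that depth did not. The median cell held 25 core snRNP UMIs in SP11 (quartiles 21 and 29) and 15 in control (12 and 18). Of the SP11 cells, 94.3% (92.4 to 95.8) lay above the control median. For hnRNP genes the medians were 25 UMIs in SP11 and 24 in control, with 53.7% (50.1 to 57.3) of SP11 cells above the control median. For SR genes they were 9 in SP11 and 8 in control, with 57.3% (53.8 to 60.9) above. Only cells strictly above the control median were counted, and cells tied with it were not. The matching share of control cells was not taken. The core snRNP difference was thus spread over most cells and not held by a few.

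**Figure D3:**
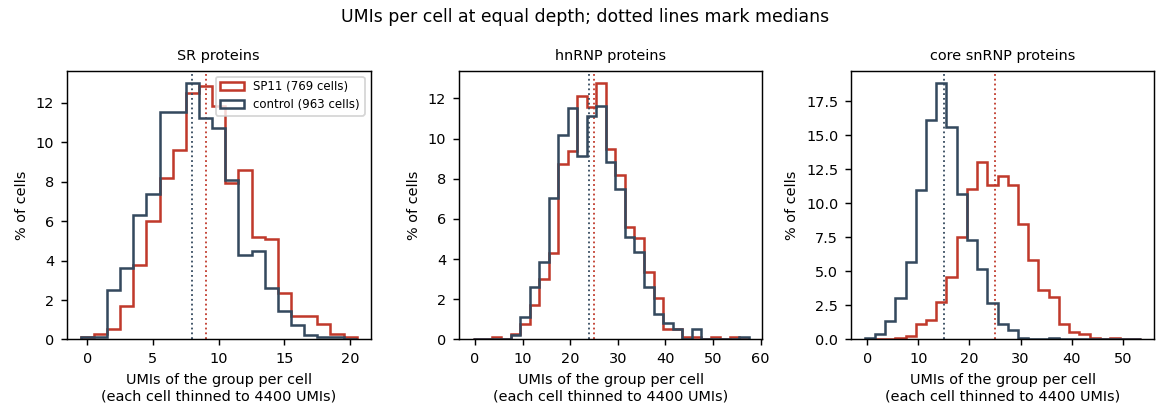
Distribution of SR, hnRNP and core snRNP UMIs per cell (x axis) as the percent of cells (y axis) in the SP11 library (red, 769 cells) and the control library (dark blue, 963 cells), each cell thinned to 4400 UMIs. Dotted lines are medians. The core snRNP medians are 25 and 15 UMIs in SP11 and control, and the hnRNP medians 25 and 24.

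Cell cycle phase was called in each library alone, and none of the 69 genes is in the lists used for the call. G1 cells made up 26.8% of SP11 and 31.9% of control cells, and G2M cells 42.1% of SP11 and 34.7% of control cells. The summed core snRNP ratio was 0.71 in G1, 0.74 in S and 0.71 in G2M cells. That of SR genes was 0.17, 0.13 and 0.14 in the same order, and that of hnRNP genes -0.04, 0.04 and 0.05. The order of the families was therefore the same in each phase.

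SP11 cells held fewer UMIs than control cells, so the ratios were also taken within ranges of depth. In the 4 ranges from 8000 UMIs up, the core snRNP ratio was 0.85, 0.79, 0.71 and 0.73 from low to high depth. In cells of 4400 to 8000 UMIs it was 0.37 (0.21 to 0.53), with 171 SP11 but only 12 control cells. Under 4400 UMIs, with 83 SP11 and 90 control cells, it was 0.21 (0.06 to 0.36), the SR ratio was -0.35 and the hnRNP ratio -0.18. The SR ratio fell off with depth, from 0.35 at 8000 to 12000 UMIs to 0.01 (-0.06 to 0.09) at 24000 UMIs and more. In that deepest range the hnRNP ratio was -0.0007 (-0.04 to 0.04), so the SR and hnRNP intervals overlapped there.

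**Figure D4:**
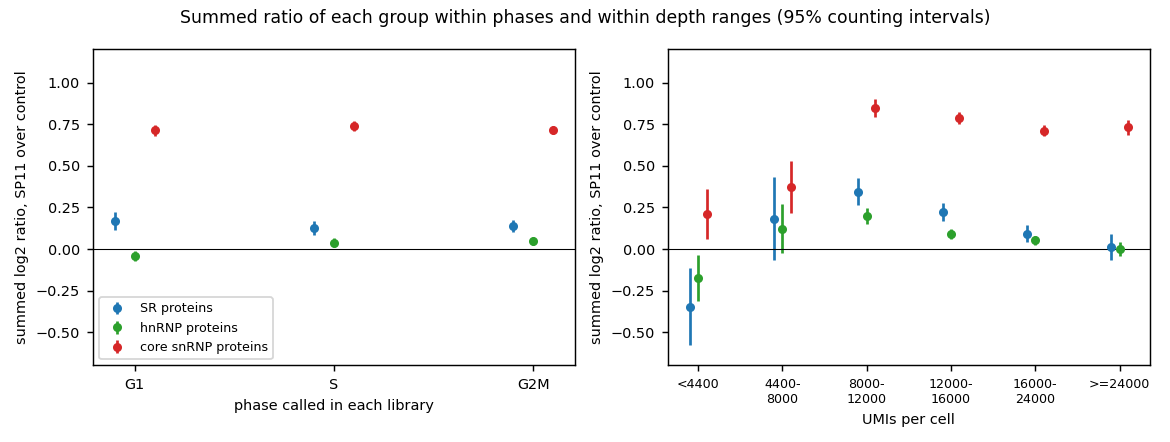
Summed log2 ratio of SP11 to control CPM (y axis) of the SR, hnRNP and core snRNP genes within called cell cycle phases (left) and within ranges of UMIs per cell (right). Bars are 95% counting intervals. The core snRNP ratio is 0.71, 0.74 and 0.71 in G1, S and G2M cells and between 0.71 and 0.85 in the ranges from 8000 UMIs up.

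Clusters made in each library alone showed where the family sums stood apart. In SP11 clusters 0 to 3 the core snRNP genes summed to between 5667 and 5936 CPM, and in control clusters 0 to 4 to between 3220 and 3620 CPM. SP11 cluster 4, of 70 cells with a median of 1826 UMIs, had 6874 CPM. Control cluster 5, of 76 cells with a median of 787.5 UMIs, had 6273 CPM, within the range of SP11 clusters 0 to 4. Its SR (2382 CPM) and hnRNP sums (7552 CPM) were the highest of any cluster in either library, so it did not match the SP11 clusters there. SP11 cluster 5, of 20 cells led by ATP6V0D2, SLC26A11, TDO2, MMP1 and S100A12, had 3129 CPM, the lowest value of any cluster in either library. It was the lowest SP11 cluster for each family except U2AF, with 9898 CPM of splicing factor UMIs against 16305 to 17649 CPM in the other SP11 clusters. Without these 3 clusters the core snRNP ratio was 0.75 and the hnRNP ratio 0.05.

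**Figure D5:**
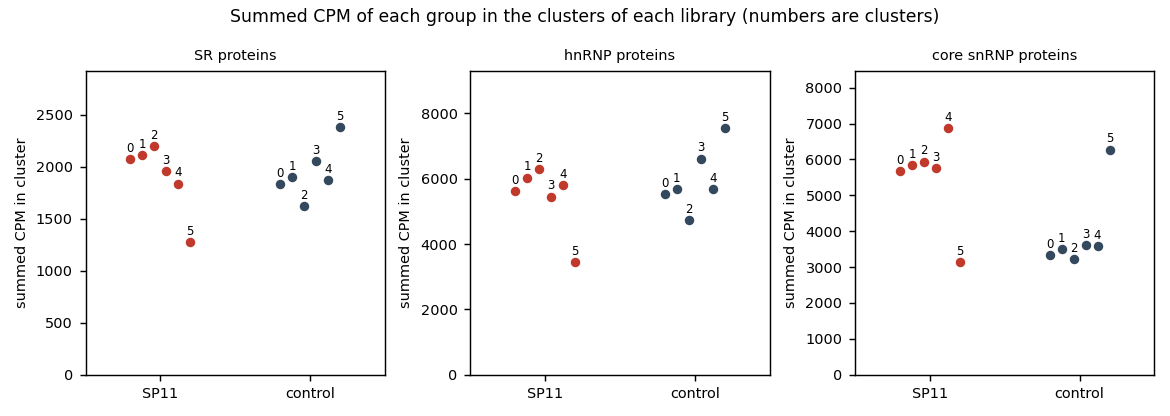
Summed CPM (y axis) of the SR, hnRNP and core snRNP genes in each cluster (points, with the cluster number) of the SP11 library (left, red) and the control library (right, dark blue). For core snRNP genes, SP11 clusters 0 to 4 lie between 5667 and 6874 CPM and control clusters 0 to 4 between 3220 and 3620 CPM, while SP11 cluster 5 (3129 CPM) and the shallow control cluster 5 (6273 CPM) lie apart.

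Long genes had lower ratios in these libraries, with a Spearman correlation of -0.34 between ratio and intronic bases across 12094 measured genes, which share both libraries and are not independent. Across the 69 splicing factor genes the correlation was -0.16. Their median intronic length was 11127 bases, against 27795.5 for all measured genes. With the trend over 20 bins of intronic length subtracted, 21 members were higher and 5 lower by 1.5-fold or more, beside 17.7% and 23.2% of all measured genes. The summed core snRNP ratio was then 0.76, that of SR genes 0.28 and that of hnRNP genes 0.15. Whether intronic reads entered the counts is not given in the sources used.

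Other splicing genes were read from lists of their own. Their counts past 1.5-fold stand beside 10.7% of all measured genes higher and 38.4% lower in SP11 cells. Of 13 LSM ring and Sm-like genes, 3 were at least 1.5-fold higher and none 1.5-fold lower, with a median of 0.24. LSM7 had 708 CPM in SP11 and 360.5 CPM in control cells, a log2 ratio of 0.97. Of 15 genes that assemble the Sm ring, 4 were higher and 2 lower by that size, with a median of 0.20. GEMIN7, a part of the SMN complex, had 41.2 CPM in SP11 and 13.1 CPM in control cells (1.66), and WDR77, of the complex that methylates Sm proteins, had 38.8 CPM in SP11 and 19.7 CPM in control cells (0.98). GEMIN8 and GEMIN2 had ratios of -0.98 and -0.86. Of 15 further snRNP genes, 1 was higher (SNRNP27, 1.01) and 1 lower (PHF5A, -1.16), with a median of 0.22.

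Of 9 kinases and import factors of SR proteins, none was higher by 1.5-fold and 3 were lower by that size, where 10.7% and 38.4% of all measured genes were, and their median of -0.32 was near that of all genes. CLK1, a kinase of SR proteins, had 7.05 CPM in SP11 and 14.0 CPM in control cells (-0.99), and DYRK1A 72.7 CPM in SP11 and 138 CPM in control cells (-0.92). Of 22 genes of the PRP19 complex and the catalytic steps, 3 were higher and 2 lower, with a median of 0.24. XAB2 (SYF1) had the lowest ratio of them, with 12 SP11 and 295 control UMIs and a log2 ratio of -3.59 (-4.56 to -2.76). Of 18 genes of the exon junction complex and TREX, 3 were higher and 2 lower, with a median of 0.10. There the export helicases DDX39A and DDX39B lay at opposite ends, DDX39A with 217 CPM in SP11 and 109 CPM in control cells (1.00) and DDX39B with 27.1 CPM in SP11 and 117 CPM in control cells (-2.12).

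Of 44 other splicing regulators, 6 were higher and 5 lower by that size, with a median of 0.17. That was 13.6% higher and 11.4% lower, beside 10.7% and 38.4% of all measured genes. The same shares of all measured genes stand beside the counts of the next lists. PTBP1, a repressor that binds polypyrimidine tracts, had 234 CPM in SP11 and 107 CPM in control cells (1.14), and the cold-inducible RBM3 had a ratio of 1.01. MATR3 had a ratio of -0.99, but the files hold its symbol under 2 identifiers at overlapping positions, so that its count is uncertain. Of 8 minor spliceosome genes, 1 was higher (SNRNP25, 1.14) and 1 lower (PDCD7, -1.06), with a median of -0.35. Of 13 genes for nonsense-mediated decay factors, 0 were higher and 2 lower, with a median of -0.02. The nuclear-retained RNAs KCNQ1OT1, NEAT1 and MALAT1 had ratios of -2.29, -2.01 and -0.96, and their part in the results on splicing factors was not tested.

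The 6 matches under the minimum were SRSF12 (0 SP11 and 3 control UMIs), HNRNPLL (9 SP11 and 7 control UMIs, the nearest from below) and HNRNPCL1, HNRNPCL2, HNRNPCL3 and HNRNPCL4, which were at 0 in both libraries. HNRNPA1P48 was left out as a pseudogene by its symbol, though GENCODE 44 lists its identifier as a protein-coding gene, HNRNPA1L3. It held 182 SP11 and 266 control UMIs, a log2 ratio of 0.48, and adding it left the hnRNP sum at 0.03.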

How the data were processed

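The files the authors deposited hold raw UMI counts, by gene and barcode, in 1 matrix for each of the 2 libraries. Per the file headers and the submitters' processing notes the counts came from Cell Ranger 7.1.0 on GRCh38 (hg38). Cells were filtered at 200 genes and 20% mitochondrially encoded UMIs, the limits the study states. Of 864 SP11 and 1076 control barcodes these limits left 852 SP11 and 1053 control cells. The study retained fewer cells of both, mainly of the control, so its set of cells is not the one used here. CPM is a gene's UMIs over kept cells as a share of their total. Intervals of ratios come from the exact (Clopper-Pearson) interval of a gene's UMIs between the libraries. A count of 0 allows up to 3 counts of the total, 0.316 CPM in SP11 and 0.155 CPM in control cells. Both kinds of limit cover counting error only.

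The members and lists were chosen with earlier results of these data known. The text names each member at least 1.5-fold apart, the 3 highest, 3 lowest and 3 most abundant of each family, those nearest the minimum and up to 2 from each end of other lists. Doublets were called with Scrublet (scanpy 1.11.5; 21 SP11 and 49 control cells) and kept. Clusters and phases were obtained per library in Seurat 5.3.0 under R 4.3.3, using 2000 variable features, 10 principal components and resolution 0.5. Lengths came from GENCODE 44. The alternatives were TMM factors (edgeR 4.0.16), DESeq2 1.42.0 size factors, other totals, weights, filters, minimums, thinning depths and phases, and the subtracted intronic trend. Depth ranges, removal of shared barcodes or of clusters, and the added HNRNPA1P48 were chosen after seeing the data. Ratio and thinning code was tested on simulated data. The mouse experiment was not analysed here, and the values of 1 member are counted in sums and counts but not reported.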

Additional observations from a re-analysis of the deposited data

How the results depend on the processing

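No direction reversed among the members at least 1.5-fold apart under any alternative run on single genes. Among 46 named members, 7 signs changed with TMM or DESeq2 factors, 4 with the intronic trend subtracted, 4 in G1, 2 in S and 2 in G2M cells, 1 and 2 with cells thinned to 4400 and 3000 UMIs, and 1 without the shallow clusters and SP11 cluster 5. Over all 69 the members below 0 numbered 26 on CPM and 12 with either set of factors. On CPM 43 members lay above 0, beside 3953 of all 12128 measured genes. With TMM and DESeq2 factors the summed log2 ratio was 1.07 and 1.09 for core snRNP, 0.49 and 0.51 for SR and 0.38 and 0.40 for hnRNP genes. The median of all members was 0.56 and 0.58, 31 and 33 members were 1.5-fold higher, and 1 was lower with each. The shares of all measured genes were not taken with these factors. Relative to the median gene they were 22.5% higher and 24.3% lower. With the intronic trend subtracted the sums were 0.76, 0.28 and 0.15 in the same order of families, the median 0.36 and the higher members 21. Of all measured genes 17.7% were higher on that scale. Totals without mitochondrially encoded genes gave 0.67, 0.094 and -0.021, and a mitochondrial maximum of 10% gave 0.70, 0.12 and -0.023. Equal weight for every cell gave a core snRNP sum of 0.66. Thinned to 3000, 4400 and 6000 UMIs, SR sums were 0.22, 0.18 and 0.18, and the hnRNP sum at 4400 UMIs was 0.051. The hnRNP sum was -0.042 in G1 and 0.049 in G2M cells. In cells of 8000 to 12000, 12000 to 16000 and 16000 to 24000 UMIs, SR sums were 0.35, 0.22 and 0.092 and hnRNP sums 0.20, 0.089 and 0.052, and core snRNP sums in the lower pair of ranges were 0.85 and 0.79. Without the shallow clusters and SP11 cluster 5 the core snRNP sum was 0.75 and the hnRNP sum 0.052, and without shared barcodes they were 0.72 and 0.032. The SR share of the 3 families' UMIs was 15.5% in SP11 cells at 4400 UMIs. In control cells it was 16.6% at 3000 and 16.8% at 6000 UMIs, 16.8% with the 10% maximum, 16.4% in G1 and 17.5% in S cells. The causes were not tested. With 1 library per condition, depth limits only the counting error, and treatment and library cannot be told apart.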
